A study of Mus musculus with 44 samples.

Results

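The genes described here are the RANK ligand axis and genes of microfold (M) cells of the gut. The axis comprises the ligand Tnfsf11, its receptor Tnfrsf11a and its soluble decoy receptor Tnfrsf11b. The M cell genes are Spib, Gp2, Tnfaip2, Ccl9 and Marcksl1. They were chosen by name, with earlier results of these data known, and are 8 of the 29720 genes in each deposited count table. All 8 passed the filter on low counts in both mouse models.

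RANK ligand is a cytokine of the TNF family that stromal cells under lymphoid follicles, activated T cells and group 3 innate lymphoid cells make. It binds RANK on neighbouring cells, which activates NF-kB, and the decoy receptor osteoprotegerin (Tnfrsf11b) binds the ligand and keeps it from RANK. In the gut this signal turns epithelial cells above lymphoid follicles into M cells, which carry bacteria and antigens from the lumen to the immune cells below, and in bone the same ligand drives osteoclasts.

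RNA of whole intestinal tissue from C57BL/6 mice was sequenced in 44 poly-A selected libraries of 8 groups. In the T cell transfer model, all mice were Rag1 null and so lacked T and B cells of their own. Those given 400000 naive T cells developed colitis 8 to 12 weeks later (inflamed), and those given 200000 bulk T cells did not (non-inflamed). In the TNFΔARE model, inflamed mice were Tnf ΔARE/+, with 1 allele lacking the AU-rich element that limits the life of Tnf mRNA in every cell that makes it, and non-inflamed mice were Tnf +/+ littermates, randomized at 16 weeks of age. Each kind of mouse was dosed with vehicle (methylcellulose and Tween) or with 3 mg/kg of ATI-450, which inhibits the stress kinase MK2. A second dose followed 16 h later and harvest 90 min after that, although 24 h of treatment is stated for the series. The transfer model had 5 non-inflamed and 6 inflamed libraries with vehicle and 6 and 6 with the inhibitor, and the TNFΔARE model had 5 and 5 with vehicle and 5 and 6 with the inhibitor. The labels do not state that each library is a separate animal, so p-values measure the spread between libraries.

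The depth was 5.95 to 22.35 M counts per library for the transfer model and 5.80 to 13.11 M for the TNFΔARE model. Tnf, the altered gene, read 13.2 to 55.6 CPM (counts per M library counts) in the Tnf ΔARE/+ libraries and 0.284 to 2.29 CPM in the Tnf +/+ libraries, without overlap. Mapkapk2, which encodes the inhibitor's target, read 81.8 to 165 CPM over the 44 libraries. The labels name distal colon and ileum but no region per library. Hoxb13, a transcription factor of the distal colon, was at most 0.925 CPM in all 21 TNFΔARE libraries and 104 to 580 CPM in the transfer libraries, except inflamed vehicle replicate 3 with 0.074 CPM. The 12 small intestinal enterocyte genes summed to 47477 CPM in that library, to 9062 to 43108 CPM in the TNFΔARE libraries and to at most 390 CPM in every other transfer library. A set of 5 inflamed transfer libraries held transcripts of the exocrine pancreas, described with Gp2. Inflamed vehicle replicate 3 and these 5 libraries stand apart, and the counts of the 8 genes and of the pathway lists are given with and without them.

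Inflammation went with higher RNA of the ligand and the decoy, and not of the receptor, in both models. With vehicle, 5 of the 8 genes were called higher in inflamed than in non-inflamed transfer mice, Tnfsf11, Tnfrsf11b, Tnfaip2, Ccl9 and Marcksl1, where 7.74% of the 15317 genes tested were called higher (6.45% lower and 14.2% in either direction). In the TNFΔARE model the same 5 genes and Spib, 6 of 8, were called higher, where 8.66% of the 14370 genes tested were (7.27% lower and 15.9% in either direction). None of the 8 was called lower. A call is an adjusted p under 0.05 in edgeR's quasi-likelihood test with the labelled batch as a term, adjusted by Benjamini-Hochberg over all genes tested. The median log2 fold change of the 8 genes was 2.33 in the transfer model and 1.75 in the TNFΔARE model, against 0.03 and -0.02 over all genes tested. In bulk tissue, a change in the number of cells that make an RNA and a change in RNA per cell cannot be told apart.

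In the transfer model these calls rested on the shared fit of all 4 groups. With the 2 vehicle groups fitted alone, or batch 4 alone (5 inflamed and 2 non-inflamed libraries), 0 of the 8 genes and 0 of all genes tested passed edgeR's adjusted threshold, with 1615 and 1319 genes at an unadjusted p under 0.05. Without the libraries with pancreatic transcripts only Ccl9 passed (adjusted p = 0.0466 in edgeR), and 126 genes in all. Without inflamed vehicle replicate 3 as well, the same 5 genes passed again (adjusted p from 0.00773 to 0.0229), with 1053 genes in all.

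**Figure D1:**
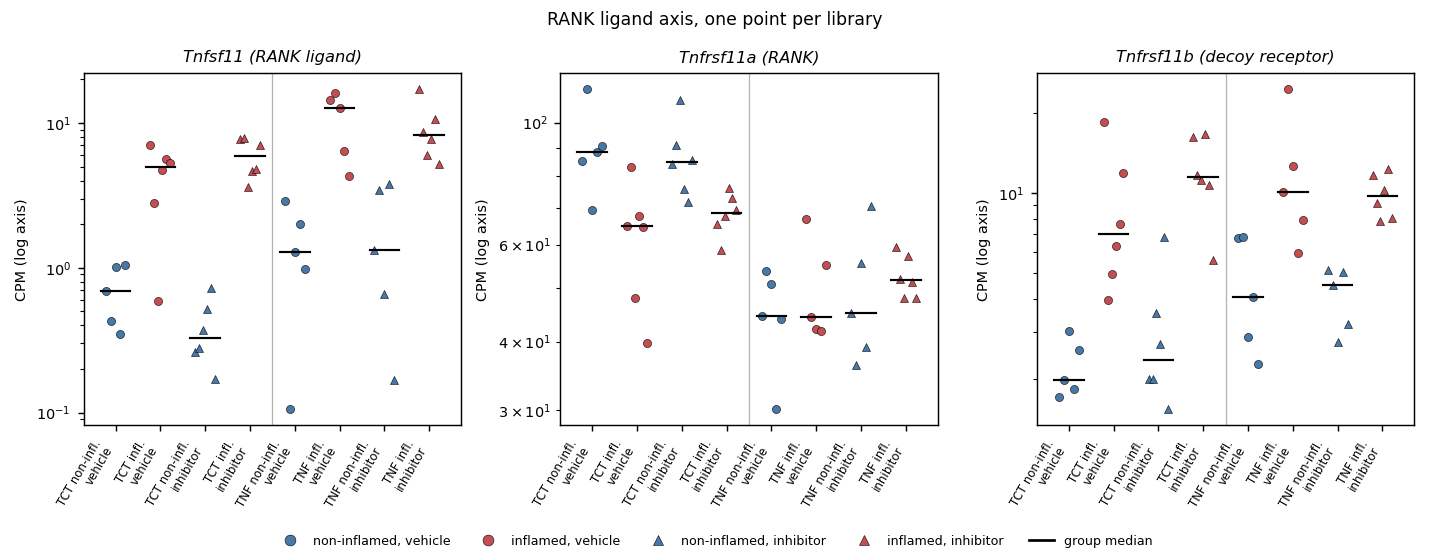
Level in CPM on a log axis of Tnfsf11, Tnfrsf11a and Tnfrsf11b in each of the 44 libraries, by model (TCT, T cell transfer; TNF, TNFΔARE), inflammation and treatment; bars are group medians. Tnfsf11 and Tnfrsf11b medians are higher in every inflamed group than in its non-inflamed counterpart, and Tnfrsf11a stays between 30.1 and 115 CPM.

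Tnfsf11 (chr14:78277445-78308043, minus strand, GRCm38, gene models of GENCODE M21, as for the genes below) encodes RANK ligand. In the vehicle groups of the transfer model it read 0.348, 0.427, 0.696, 1.01 and 1.05 CPM in the 5 non-inflamed libraries and from 0.592 to 7.07 CPM (median 5) in the 6 inflamed ones. A single inflamed library, replicate 3, the one with small intestinal transcripts, lay within the non-inflamed range, and the other inflamed libraries were all at 2.79 CPM or above. The fitted log2 fold change was 2.79 ± 0.51 (SE; adjusted p = 0.00312 in edgeR), and 3.04 without replicate 3 (adjusted p = 0.000123). It was 2.45 without the libraries with pancreatic transcripts (adjusted p = 0.0575) and 2.44 in batch 4 alone (adjusted p = 0.558).

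In the TNFΔARE vehicle groups Tnfsf11 read 0.105, 0.982, 1.29, 1.99 and 2.89 CPM in the wild-type libraries and 4.29, 6.41, 12.6, 14.5 and 16.1 CPM in the inflamed ones. Every inflamed library was above every wild-type library. The log2 fold change was 2.99 ± 0.51 (adjusted p = 0.00041 in edgeR), with 4 of the 5 inflamed libraries and all wild-type libraries in batch 2, and the value of the inflamed batch 3 library, 4.29 CPM, was the lowest of its group. The non-inflamed libraries held few reads of this gene, 7 to 20 counts in the transfer model and 1 to 40 in the TNFΔARE model.

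The ligand was also higher in inflamed mice given the inhibitor. In transfer mice it ran from 0.171 to 0.726 CPM (median 0.326) without inflammation and from 3.6 to 7.92 CPM (median 5.89) with it, and the ranges did not overlap (log2 fold change 4.13 ± 0.49, adjusted p = 2.93e-05 in edgeR). In TNFΔARE mice the wild-type libraries read 0.169, 0.663, 1.32, 3.47 and 3.78 CPM and the inflamed ones 5.19 to 17.1 CPM (median 8.24). These groups did not overlap either, but the call (3.33 ± 0.63, adjusted p = 0.00147) was lost without inflamed inhibitor replicate 1 (3.58, adjusted p = 0.0853), the only inflamed inhibitor library that shares batch 2 with the wild-type libraries. That library read 17.1 CPM, the highest of the 44.

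The order of mean levels of Tnfsf11 ran from inflamed TNFΔARE with vehicle (10.8 ± 5.17 CPM, SD, n = 5) and with inhibitor (9.26 ± 4.32, n = 6) through inflamed transfer with inhibitor (5.95 ± 1.82, n = 6) and vehicle (4.35 ± 2.31, n = 6) to wild-type littermates with inhibitor (1.88 ± 1.65, n = 5) and vehicle (1.45 ± 1.05, n = 5). The non-inflamed transfer groups were lowest, at 0.706 ± 0.323 CPM with vehicle (n = 5) and 0.389 ± 0.204 with inhibitor (n = 6). Each group overlapped with its neighbour in this order.

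Tnfrsf11a (chr1:105780718-105847981, plus strand) encodes RANK, the receptor. It was the most even of the 8 genes, at 39.8 to 115 CPM over the 23 transfer libraries and 30.1 to 70.6 CPM over the 21 TNFΔARE libraries, and none of the 4 comparisons of inflamed with non-inflamed mice called it. In the transfer vehicle groups it read 69.3, 85.3, 88.4, 90.6 and 115 CPM without inflammation and 39.8 to 83.1 CPM (median 64.8) with it. The inflamed values lay mostly below the non-inflamed ones, with a single inflamed library, replicate 2, inside their range. The log2 fold change of -0.54 ± 0.18 was just outside the threshold (adjusted p = 0.0521 in edgeR) and passed with RLE scaling (-0.53, adjusted p = 0.0491), DESeq2 (-0.53, adjusted p = 0.0305) and no batch term (-0.55, adjusted p = 0.0164). In the TNFΔARE vehicle groups the wild-type libraries read 30.1, 43.9, 44.6, 50.8 and 53.8 CPM and the inflamed ones 41.8, 42.1, 44.3, 55.2 and 66.9 CPM. Those ranges overlapped, and the log2 fold change was 0.17 ± 0.19 (adjusted p = 0.648, 95% interval -0.23 to 0.57).

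Per kb of exon, the receptor RNA was above the ligand RNA in all 8 groups. Mean levels of Tnfrsf11a were 15 CPM per kb in non-inflamed transfer vehicle libraries and 8.37 in inflamed TNFΔARE vehicle libraries. Tnfsf11 reached 0.316 and 4.82 CPM per kb in the same groups.

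Tnfrsf11b (chr15:54250619-54278484, minus strand) encodes osteoprotegerin, the decoy. In the transfer vehicle groups it read 1.71, 1.84, 1.98, 2.58 and 3.03 CPM without inflammation and 3.96 to 18.5 CPM (median 6.99) with it. All inflamed libraries, replicate 3 included, were above all non-inflamed ones. The log2 fold change was 2.01 ± 0.35 (adjusted p = 0.00261 in edgeR), and 1.80 without the libraries with pancreatic transcripts (adjusted p = 0.0518). In the TNFΔARE vehicle groups the wild-type libraries read 2.29, 2.87, 4.08, 6.79 and 6.85 CPM and the inflamed ones 5.94, 7.91, 10.1, 12.6 and 24.5 CPM. The ranges overlapped at 1 inflamed library, and the log2 fold change of 1.48 ± 0.34 (adjusted p = 0.00486) did not pass with batch 2 alone (1.52, adjusted p = 0.0629). With the inhibitor the difference was 1.86 ± 0.30 in transfer mice (adjusted p = 0.000263, with overlap) and 1.66 ± 0.46 in TNFΔARE mice, without overlap (adjusted p = 0.0221, and 0.183 without inflamed inhibitor replicate 1).

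The RNA of ligand relative to decoy is given as a ratio of CPM within each library, with no test. With vehicle its median was 0.333 in non-inflamed and 0.573 in inflamed transfer libraries, whose ranges overlapped (0.189 to 0.408 and 0.119 to 0.748). In the TNFΔARE model the median was 0.429 in wild-type libraries (0.0154 to 0.487) and 1 in inflamed ones (0.542 to 1.43), without overlap. With the inhibitor the ratio was 0.105 to 0.191 in non-inflamed and 0.282 to 1.25 in inflamed transfer libraries, again without overlap. In TNFΔARE mice given the inhibitor it was 0.0526 to 0.767 and 0.647 to 1.47, which overlapped. The non-inflamed ratios rest on few Tnfsf11 counts per library. These were 7 to 20 with vehicle and 3 to 9 with inhibitor in transfer mice, and 1 to 40 and 2 to 42 in wild-type mice.

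MK2 acts on proteins that bind AU-rich elements after the stop codon of mRNAs, so these stretches were read for the core TATTTAT on the mRNA strand, in the longest annotated 3′ end of each gene (GENCODE M21, GRCm38). Each of the 3 genes of the axis held 1 such core and none of the M cell genes did. The core was in 27.6% of the 21037 genes with such a stretch, and in 6.5% to 46.8% of the genes of like length for the 5 M cell genes. The sites are shown because they belong to the ligand, receptor and decoy, with the core in capitals:
Tnfsf11: tgtcaggagTATTTATgcaattatt
Tnfrsf11a: ccacccccaTATTTATtattcactt
Tnfrsf11b: cagtattgcTATTTATattcatgca
The cores start 913, 238 and 983 bases after the stop codon, in 3′ ends of 1131, 3115 and 1375 bases. Among 3′ ends within 20% of these lengths, 27.6%, 54.5% and 32.2% held the core. The core with a further T at each end, a longer form that contains it, was in none of the 8 genes and in 7.65% of 21037 genes.

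**Figure D2:**
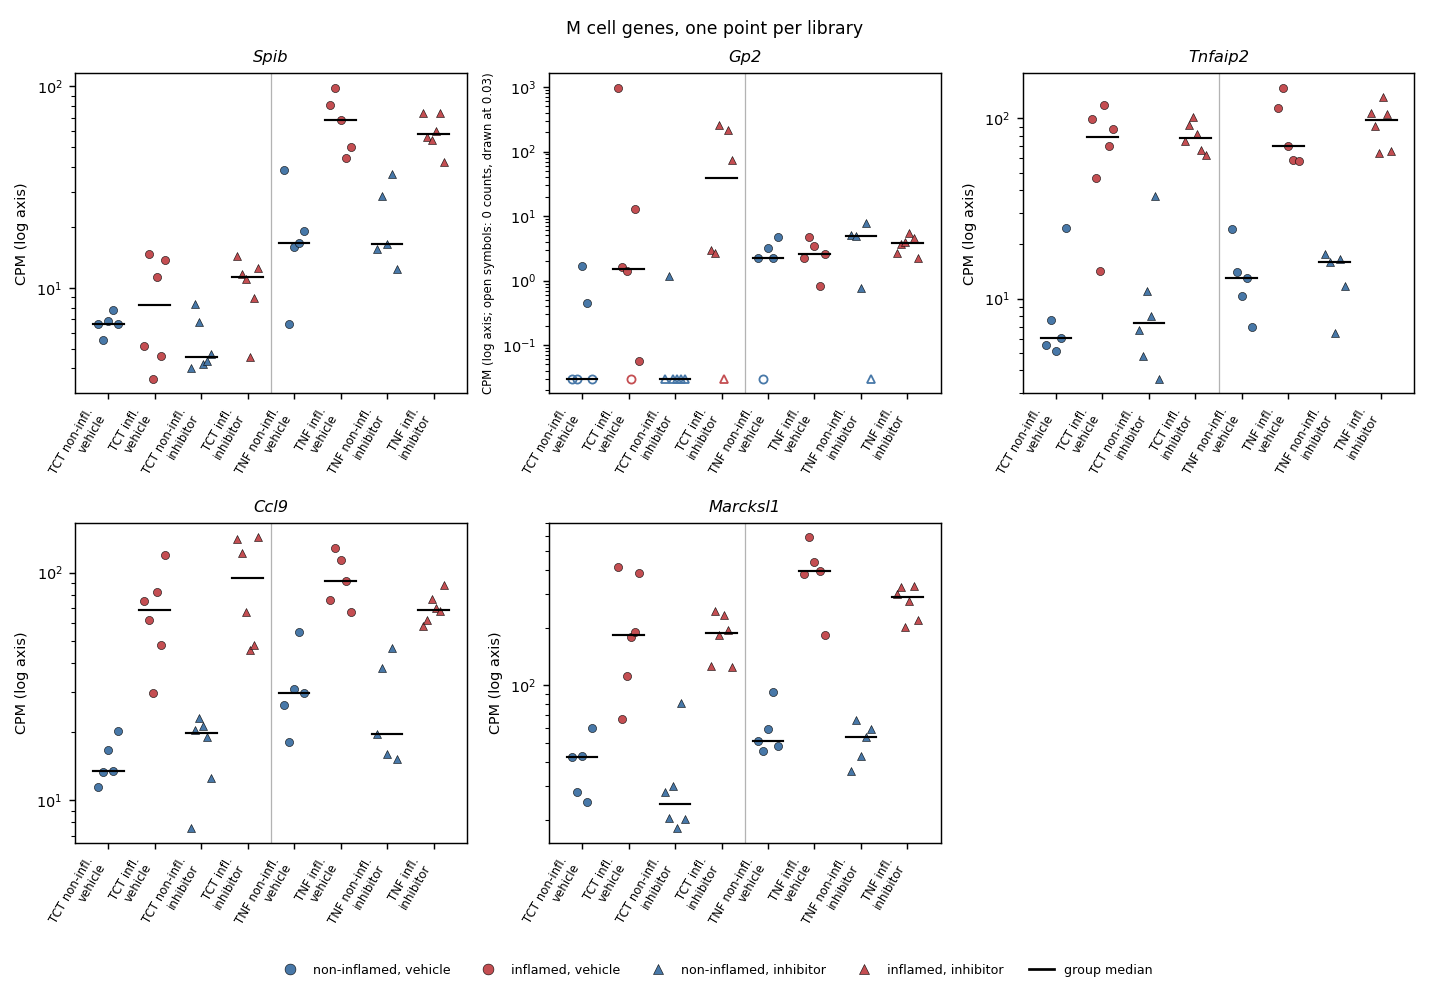
Level in CPM on a log axis of Spib, Gp2, Tnfaip2, Ccl9 and Marcksl1 in each library, by group (TCT, T cell transfer; TNF, TNFΔARE); bars are group medians, and open symbols are libraries with 0 counts of Gp2, drawn at 0.03 CPM. Spib is highest in the inflamed TNFΔARE libraries (42.2 to 98.4 CPM), and high Gp2 is seen in 5 inflamed transfer libraries (12.9 to 972 CPM).

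Spib (chr7:44525993-44532071, minus strand) encodes a transcription factor of the ETS family that M cells need to mature and that B cells and plasmacytoid dendritic cells also make. All 23 transfer libraries were at or below 14.8 CPM, and all 11 inflamed TNFΔARE libraries were at 42.2 CPM or above. In the TNFΔARE vehicle groups the wild-type libraries read 6.64, 16, 16.7, 19.2 and 38.6 CPM and the inflamed ones 44.2, 50.1, 68.2, 80.9 and 98.4 CPM. The groups did not overlap, and the log2 fold change was 1.88 ± 0.36 (adjusted p = 0.00114 in edgeR). With the inhibitor the wild-type libraries read 12.4, 15.6, 16.6, 28.7 and 36.6 CPM and the inflamed ones 42.2 to 73.9 CPM (median 58.2), also without overlap (1.82 ± 0.47, adjusted p = 0.0145, and 0.225 without inflamed inhibitor replicate 1).

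In the transfer vehicle groups Spib read 5.5, 6.62, 6.64, 6.87 and 7.81 CPM without inflammation and 3.55 to 14.8 CPM (median 8.31) with it. The inflamed libraries fell on both sides of the non-inflamed ones, and the log2 fold change of 0.47 ± 0.36 did not pass (adjusted p = 0.38 in edgeR). With the inhibitor the non-inflamed libraries ran from 4 to 8.38 CPM (median 4.54) and the inflamed ones from 4.55 to 14.4 CPM (median 11.4). There the log2 fold change of 1.14 ± 0.33 passed (adjusted p = 0.0161), but was lost without the pancreatic libraries (0.98, adjusted p = 0.0844) or without inflamed inhibitor replicate 1 (1.07, adjusted p = 0.0536). The difference between the models in the effect of inflammation with vehicle, tested in a joint fit of all 44 libraries, was -1.41 ± 0.51 for Spib and did not pass (adjusted p = 0.105).

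Since Spib, Tnfaip2 and Ccl9 were the genes among the 8 with an NF-kB consensus site in the promoter window, their windows are shown. Each runs from 250 bases before to 50 bases after the start of the gene in RefSeq (GRCm38.p6), and 7 of the 8 genes had a window. The capitals mark matches to the 10-base NF-kB consensus on either strand:
Spib, chr7:44532022-44532321, minus strand: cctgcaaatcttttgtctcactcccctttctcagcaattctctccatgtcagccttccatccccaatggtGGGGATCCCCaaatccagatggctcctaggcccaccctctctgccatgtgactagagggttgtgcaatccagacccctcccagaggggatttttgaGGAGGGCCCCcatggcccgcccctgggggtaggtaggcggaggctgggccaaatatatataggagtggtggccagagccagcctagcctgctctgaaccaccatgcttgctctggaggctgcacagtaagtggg
Tnfaip2, chr12:111442411-111442710, plus strand: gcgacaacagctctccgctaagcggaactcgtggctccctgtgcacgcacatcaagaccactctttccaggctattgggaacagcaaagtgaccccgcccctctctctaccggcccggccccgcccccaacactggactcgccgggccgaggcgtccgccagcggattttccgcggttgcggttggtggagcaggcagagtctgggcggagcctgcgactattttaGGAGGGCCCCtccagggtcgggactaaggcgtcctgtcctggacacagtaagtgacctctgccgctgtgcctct
Ccl9, chr11:83578587-83578886, minus strand: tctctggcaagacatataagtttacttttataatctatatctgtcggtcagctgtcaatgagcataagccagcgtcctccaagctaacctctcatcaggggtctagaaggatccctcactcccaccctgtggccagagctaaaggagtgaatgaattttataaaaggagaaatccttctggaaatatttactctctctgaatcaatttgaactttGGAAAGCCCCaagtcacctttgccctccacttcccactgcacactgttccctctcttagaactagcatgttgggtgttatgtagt
Of all 32851 windows of this length 8.46% held a match, and of the 7 windows here 3 did, with 2 matches in Spib. The AP-1 motif TGANTCA, searched on both strands, was in 1 of the 7 windows, that of Ccl9, and in 7.81% of all windows. A match is a stretch of letters and not a measured binding site.

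Gp2 (chr7:119442537-119459285, minus strand) encodes glycoprotein 2, a receptor for bacteria on mature M cells that acinar cells of the pancreas also make in large amounts. In the TNFΔARE model it was at most 7.92 CPM in each of the 21 libraries, and the groups overlapped. The wild-type vehicle libraries read 0, 2.2, 2.24, 3.17 and 4.8 CPM and the inflamed ones 0.816, 2.22, 2.55, 3.47 and 4.68 CPM, with overlap. The log2 fold change was 0.11 ± 0.73 (adjusted p = 0.958 in edgeR), with a 95% interval from -1.42 to 1.63. Under the inhibitor it was -0.21 ± 0.98 (adjusted p = 0.941).

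In the transfer model Gp2 followed pancreatic transcripts. The 16 acinar genes, digestive enzymes such as Cpa1, Cela2a and Pnlip, summed to 530 to 39832 CPM in 5 inflamed libraries, vehicle replicates 1 and 5 and inhibitor replicates 3, 5 and 6, and to 2.61 to 36.5 CPM in the other 18. Gp2 read 972, 12.9, 256, 213 and 74.8 CPM in those 5, in that order, and at most 2.94 CPM in the other 18. Gp2 was 2.07% to 2.73% of the acinar sum in these 5 libraries. In the non-inflamed libraries Gp2 was 0 in 3 of 5 with vehicle and in 5 of 6 with inhibitor, where a count of 0 allows up to 0.158 to 0.436 CPM (3 counts, counting error only). With the inhibitor Gp2 was called higher in inflamed transfer mice (6.62 ± 2.30, adjusted p = 0.0398 in edgeR), a fitted value that depends on the prior count because most of the non-inflamed libraries were at 0. Without the libraries with pancreatic transcripts it was 3.34 (adjusted p = 0.107). With vehicle it was 4.13 ± 2.36 (adjusted p = 0.24) with all libraries and 2.00 without them (adjusted p = 0.49).

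**Figure D3:**
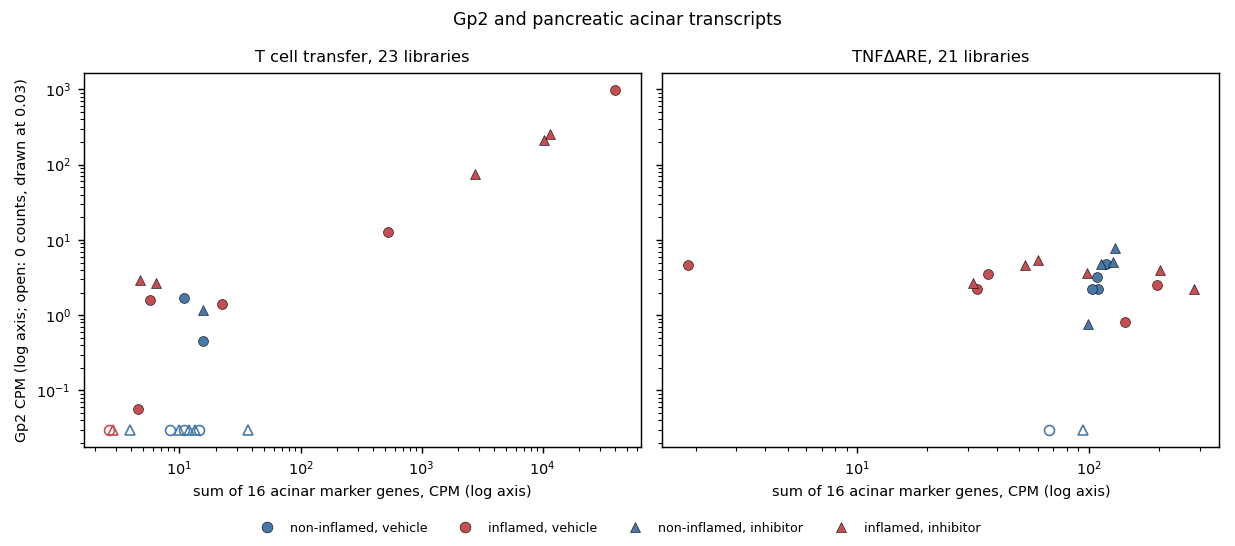
Gp2 in CPM against the summed CPM of 16 pancreatic acinar genes, both on log axes, for the 23 transfer and 21 TNFΔARE libraries; open symbols have 0 counts of Gp2 and are drawn at 0.03 CPM. The 5 transfer libraries with acinar sums of 530 CPM or more hold Gp2 at 12.9 to 972 CPM, and the other 18 are at 2.94 CPM or less.

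Tnfaip2, Ccl9 and Marcksl1 rose with inflammation in both models and under both treatments. Tnfaip2 (chr12:111442469-111455018, plus strand) encodes a protein that shapes the plasma membrane of M cells and is induced by TNF in other cells. With vehicle it read 5.11, 5.5, 6.07, 7.58 and 24.7 CPM in non-inflamed and 14.3 to 119 CPM (median 78.9) in inflamed transfer libraries, and 6.98, 10.4, 13.1, 14.1 and 24.5 against 58, 58.6, 70.5, 114 and 148 CPM in the TNFΔARE model. The TNFΔARE groups did not overlap, while in the transfer model inflamed replicate 3, at 14.3 CPM, lay below non-inflamed replicate 7. The log2 fold changes were 2.58 ± 0.57 (adjusted p = 0.00679 in edgeR) and 2.76 ± 0.35 (adjusted p = 1.81e-05).

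Ccl9 (chr11:83572919-83578636, minus strand) encodes a chemokine of the follicle-associated epithelium that draws dendritic cells and that macrophages also make. With vehicle it read 11.4, 13.3, 13.4, 16.6 and 20.1 CPM in non-inflamed and 29.6 to 119 CPM (median 68.6) in inflamed transfer libraries, and 18.1, 26.1, 29.7, 30.7 and 54.7 against 66.9, 76.2, 91.9, 114 and 129 CPM in the TNFΔARE model. Neither pair of groups overlapped. The log2 fold changes were 2.34 ± 0.40 (adjusted p = 0.0024 in edgeR) and 1.61 ± 0.32 (adjusted p = 0.00144).

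Marcksl1 (chr4:129513581-129515985, plus strand) encodes an actin-binding protein of the MARCKS family and was the most abundant of the 8 genes per kb of exon in the inflamed vehicle groups of both models. With vehicle it read 24.7, 28, 42.4, 43 and 60.2 CPM in non-inflamed and 66.6 to 415 CPM (median 184) in inflamed transfer libraries, and 45.8, 48.4, 51.2, 59.3 and 92.9 against 182, 380, 395, 440 and 591 CPM in the TNFΔARE model. All inflamed libraries were above all non-inflamed ones of their model. The log2 fold changes were 2.33 ± 0.42 (adjusted p = 0.00295 in edgeR) and 2.82 ± 0.25 (adjusted p = 3.04e-07).

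Under the inhibitor, 7 of the 8 genes were called higher with inflammation in transfer mice, where 13.4% of the genes tested were (11.9% lower and 25.3% in either direction). All but Tnfrsf11a passed, and without the libraries with pancreatic transcripts Gp2 and Spib did not. In TNFΔARE mice 6 of the 8 passed, the same genes as with vehicle, where 7.91% of the genes tested were called higher (4.56% lower and 12.5% in either direction). Log2 fold changes of Tnfaip2, Ccl9 and Marcksl1 were 2.71 ± 0.50, 2.53 ± 0.35 and 2.37 ± 0.36 in transfer mice and 3.18 ± 0.45, 1.50 ± 0.46 and 3.03 ± 0.34 in TNFΔARE mice. Of the TNFΔARE calls only Tnfaip2 and Marcksl1 passed without inflamed inhibitor replicate 1, where 453 genes in all passed in place of 1791. The vehicle and inhibitor comparisons use different libraries but share the fit, and in TNFΔARE mice 5 of the 6 inflamed inhibitor libraries were batch 3 while all 5 wild-type inhibitor libraries were batch 2.

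**Figure D4:**
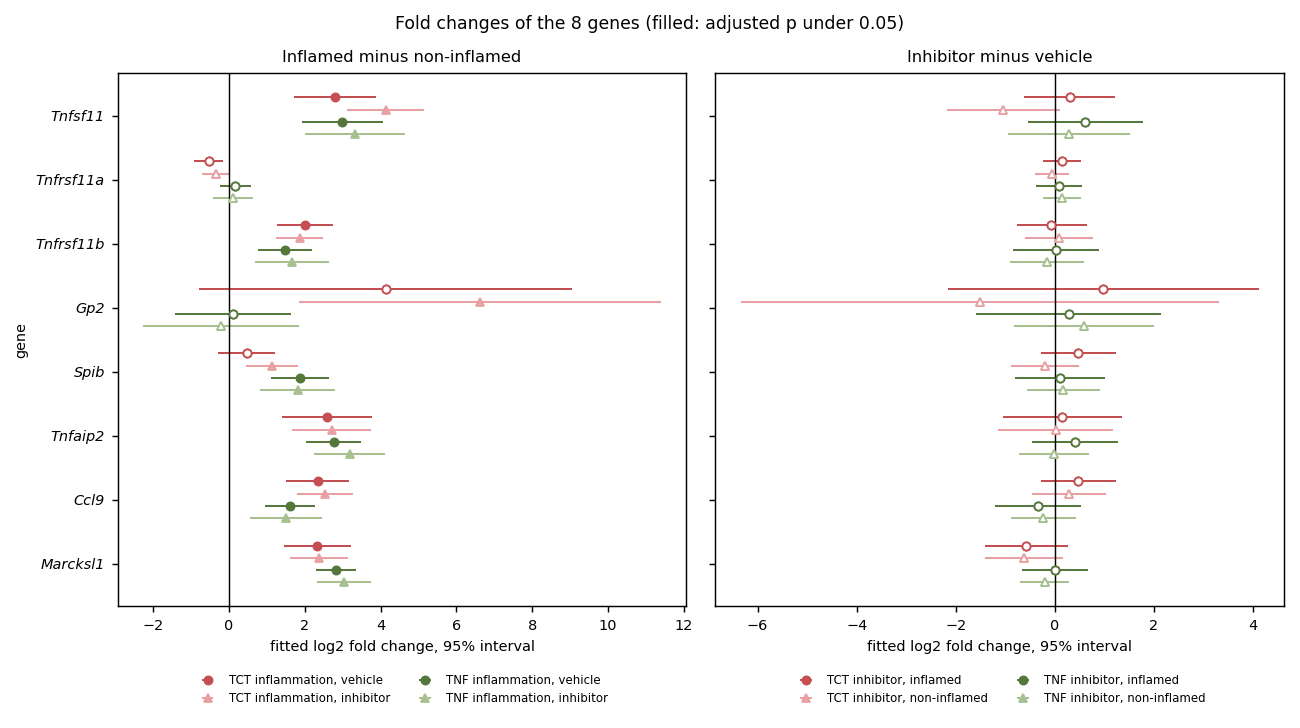
Fitted log2 fold changes of the 8 genes with 95% intervals, inflamed minus non-inflamed (left) and inhibitor minus vehicle (right), in the T cell transfer (TCT) and TNFΔARE (TNF) models; filled symbols have an adjusted p under 0.05. On the left Tnfsf11, Tnfrsf11b, Tnfaip2, Ccl9 and Marcksl1 are filled in all 4 comparisons, and on the right no symbol is filled.

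The effect of inflammation with vehicle was not called different between the models for any of the 8 genes, where 5.28% of the 15565 genes tested were, 3.37% higher and 1.91% lower (822 by edgeR, 1180 by DESeq2, and 2937 at an unadjusted p under 0.05). Without the libraries with pancreatic transcripts edgeR called 746 genes, and without replicate 3 as well 337. The difference, transfer minus TNFΔARE, was -0.22 ± 0.82 for Tnfsf11 (95% interval -1.90 to 1.45), -0.71 ± 0.27 for Tnfrsf11a (adjusted p = 0.117 in edgeR) and 0.52 ± 0.49 for Tnfrsf11b. Tnfrsf11a passed without transfer inflamed vehicle replicate 2 (-0.82, adjusted p = 0.0471) and Spib without wild-type vehicle replicate 1 (-1.81, adjusted p = 0.0248). The models also differ in the region of the gut and in the genotype of the non-inflamed mice, and these cannot be told apart from the kind of inflammation.

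No gene of the 8 was called with the inhibitor in any of the 4 comparisons with vehicle. The share called of all genes tested was 0.00653% in inflamed transfer mice (1 gene), and 0% in the non-inflamed transfer, inflamed TNFΔARE and wild-type comparisons. At an unadjusted p under 0.05 edgeR held 519, 219, 216 and 411 genes in these comparisons, and DESeq2 called 5, 8, 1 and 16 genes, none of them among the 8. In inflamed transfer mice Tnfsf11 differed by 0.30 ± 0.44 on the log2 scale (95% interval -0.62 to 1.21), Tnfrsf11a by 0.14 ± 0.18 (-0.24 to 0.52) and Tnfrsf11b by -0.07 ± 0.34 (-0.77 to 0.64). In inflamed TNFΔARE mice the same genes differed by 0.61 ± 0.55 (-0.54 to 1.77), 0.08 ± 0.22 (-0.38 to 0.55) and 0.02 ± 0.41 (-0.84 to 0.89). All 4 pairs of groups overlapped for each of the 8 genes. The share of all genes whose groups overlapped is not given here, so this is a description of the 8 genes only.

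The gene with the lowest unadjusted p was Tnfsf11 in non-inflamed transfer mice, with 0.348 to 1.05 CPM under vehicle and 0.171 to 0.726 CPM under the inhibitor. The difference was -1.04 ± 0.54 on the log2 scale (adjusted p = 1 in edgeR). These values rest on 3 to 20 counts per library. Marcksl1 differed by -0.58 ± 0.40 in inflamed and -0.62 ± 0.38 in non-inflamed transfer mice (adjusted p = 0.991 and 1). In the intervals for Tnfrsf11a a change of 2-fold is outside the range in each of the 4 comparisons, while those for Tnfsf11 and Gp2 reach beyond 2-fold in at least 1 direction in all 4.

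Of 22 genes of RANK and NF-kB signalling 5 rose and 0 fell in the transfer vehicle comparison (1 rose without the libraries with pancreatic transcripts, and 2 without replicate 3 as well), with a median log2 fold change of 0.24. In the TNFΔARE vehicle comparison 7 rose and 0 fell, with a median of 0.27. Over all genes tested 7.74% rose and 6.45% fell in the transfer vehicle comparison, and 8.66% and 7.27% in the TNFΔARE one, and the counts of every list here stand against these shares. Without the pancreatic libraries 0.81% of all genes were called in either direction in the transfer model, and without replicate 3 as well 6.78%. Without non-inflamed vehicle replicate 6 of the transfer model 2 genes of RANK signalling rose in place of 5. There 4.42% of all genes were called in either direction, against 14.2% with that library. The TNFΔARE count was 3 without inflamed vehicle replicate 2, and 4 without inflamed vehicle replicate 1 or wild-type vehicle replicate 2. Of all genes 12%, 12.5% and 14.3% were called in either direction in these fits, in that order, against 15.9% with all libraries. Nfkb2, the precursor of the p52 subunit of the non-canonical branch, rose by 0.86 ± 0.15 in transfer mice (adjusted p = 0.00265 in edgeR) and 1.62 ± 0.16 in TNFΔARE mice (adjusted p = 1.15e-06), and this difference between the models passed (-0.75 ± 0.22, adjusted p = 0.0315), but was lost without the pancreatic libraries (-0.73, adjusted p = 0.0821). Map3k14, the kinase NIK that starts that branch, rose by 0.94 ± 0.20 and 1.16 ± 0.19 (adjusted p = 0.0055 and 0.000247). Tnfaip3, the NF-kB inhibitor A20, rose by 1.09 ± 0.15 in TNFΔARE mice (adjusted p = 5.10e-05), and Traf2 and Ikbkb by 0.64 ± 0.17 and 0.40 ± 0.11 in transfer mice (adjusted p = 0.0163 and 0.0205).

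Of 20 other genes of M cells and the follicle-associated epithelium, 6 rose and 1 fell in the transfer vehicle comparison (median 1.04), and 12 rose and 0 fell in the TNFΔARE vehicle comparison (median 1.63). C5ar1, a complement receptor, rose from 2.31 to 10.2 CPM in transfer mice (2.12 ± 0.35, adjusted p = 0.00204 in edgeR) and from 1.97 to 11.9 CPM in TNFΔARE mice (2.59 ± 0.22, adjusted p = 2.31e-07). Rac2, Aif1 and S100a4, which myeloid cells make in quantity, rose by 2.76 ± 0.60, 2.68 ± 0.70 and 2.34 ± 0.67 in transfer mice. Cd44, Anxa5 and Fabp5 rose by 2.22 ± 0.22, 2.20 ± 0.24 and 2.69 ± 0.36 in TNFΔARE mice. The transcription factors of M cell maturation in this list, named here after their values were seen, were Sox8 and Esrrg. Sox8 rose in TNFΔARE mice (1.66 ± 0.41, adjusted p = 0.00767 in edgeR) and was at 0.08 ± 0.52 in transfer mice (adjusted p = 0.934). Esrrg was the gene that fell in transfer mice (-1.99 ± 0.59, adjusted p = 0.0298) and was at 0.33 ± 0.37 in TNFΔARE mice (adjusted p = 0.649). The differences between the models did not pass for Sox8 (-1.57 ± 0.68, adjusted p = 0.183) or Esrrg (-2.30 ± 0.73, adjusted p = 0.0562). Without the libraries with pancreatic transcripts 1 gene of this list rose and 0 fell in the transfer model, and without replicate 3 as well 6 rose and 0 fell. Without non-inflamed vehicle replicate 6 of that model 2 rose, where 4.42% of all genes were called in either direction.

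Of 9 genes of the osteoclast lineage with enough reads (12 listed), 6 rose in transfer and 7 in TNFΔARE mice with vehicle, with medians of 1.89 and 2.11. The list holds genes that macrophages make too, and not only targets of RANK. Mmp9 rose by 3.40 ± 0.63 and 3.31 ± 0.25 (adjusted p = 0.00313 and 4.58e-08 in edgeR) and Atp6v0d2, a proton pump subunit, by 4.04 ± 0.49 and 2.85 ± 0.47 (adjusted p = 7.98e-05 and 0.000279). Csf1r, the receptor that macrophages need to live, rose by 1.89 ± 0.34 and 2.11 ± 0.28. It is also in the list of monocyte and macrophage genes described below. Of the inducers of RANK ligand and genes of lymphoid stroma, 13 of 19 tested rose in transfer mice and 11 of 17 in TNFΔARE mice, and 0 fell. They included Cxcl13 (3.01 ± 0.62), Madcam1 (3.22 ± 0.56), Lta (3.00 ± 0.62) and Osm (3.34 ± 0.73) in transfer mice, and Tnf (5.06 ± 0.41), Il1b (4.69 ± 0.54), Tnfrsf1b (1.83 ± 0.26) and Icam1 (2.40 ± 0.37) in TNFΔARE mice. Tnf is the altered gene of the TNFΔARE mice, so its rise there cannot be told apart from the genotype. It is among the 11 genes counted with vehicle and the 9 counted below under the inhibitor. In the transfer model the counts of these lists were 2 and 1 without the libraries with pancreatic transcripts, and 6 and 10 without replicate 3 as well. Without non-inflamed vehicle replicate 6 they were 5 and 5, where 4.42% of all genes were called in either direction. Under the inhibitor the counts that rose with inflammation in transfer and TNFΔARE mice were 7 and 4 for RANK signalling, 11 and 12 for M cell genes, 7 and 7 for osteoclast-lineage genes and 15 and 9 for inducers and stroma, and Esrrg was the 1 gene that fell, in transfer mice (-2.12 ± 0.57, adjusted p = 0.011 in edgeR). Over all genes tested 13.4% rose in the transfer and 7.91% in the TNFΔARE model under the inhibitor. Without the pancreatic libraries the transfer counts of the 4 lists were 6, 9, 6 and 13, where 15.5% of all genes were called in either direction, against 25.3% with them. Without transfer inflamed inhibitor replicate 1 the count for RANK signalling was 3, and without replicate 2 it was 4. Of all genes 16.5% and 12.2% were called in either direction in these fits. Without TNFΔARE inflamed inhibitor replicate 1, 453 genes were called in that model in place of 1791 (3.15% against 12.5%), and the counts of the 4 lists were 1, 6, 6 and 5. None of these 4 lists had a gene that passed edgeR's adjusted threshold in a comparison of inhibitor with vehicle.

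The summed levels of marker genes of other cell types were compared between the same groups. The 12 monocyte and macrophage genes summed to 200 to 575 CPM in non-inflamed and 309 to 4235 CPM in inflamed transfer vehicle libraries, and to 243 to 542 and 1917 to 4384 CPM in the TNFΔARE model, with 9 and 11 of the 12 called higher (1 of 12 in the transfer model without the pancreatic libraries, and 10 without replicate 3 as well). T cell genes summed to 11.9 to 59.5 CPM in non-inflamed and 52.6 to 250 CPM in inflamed transfer vehicle libraries, with 9 of 12 called higher (0 without the pancreatic libraries, and 7 without replicate 3 as well), and to 43.7 to 130 and 72.7 to 98.1 CPM in the TNFΔARE model, with 0 of 12 called. Group 3 innate lymphoid and Th17 genes summed to 53.2 to 170 CPM without and 57.4 to 106 CPM with inflammation in the transfer vehicle groups and to 61.1 to 87.3 and 63.2 to 106 CPM in the TNFΔARE vehicle groups, with overlap. Under the inhibitor their TNFΔARE sums, 69.8 to 96.5 and 97.6 to 139 CPM, did not overlap. These sums are not adjusted for batch. The 5 wild-type inhibitor libraries were batch 2 and all but 1 of the inflamed ones batch 3, so batch and inflammation cannot be told apart there. The plasmacytoid dendritic cell genes summed to 299 to 805 and 183 to 721 CPM in the transfer vehicle groups and to 173 to 338 and 195 to 262 CPM in the TNFΔARE ones. These sums overlapped in both models. Siglech, a single gene of that list, read 0.105 to 0.941 CPM without and 1.34 to 4.16 CPM with inflammation in the TNFΔARE vehicle groups. Those ranges did not overlap (2.04 ± 0.43 on the log2 scale, adjusted p = 0.00232 in edgeR). In the transfer vehicle groups Siglech read 0.32 to 1.01 CPM without and 0.148 to 0.904 CPM with inflammation, with overlap. Under the inhibitor its median was higher with inflammation in both models, with overlap. It read 0.249 to 0.944 and 0.665 to 3.07 CPM in transfer mice (medians 0.481 and 1.73). In TNFΔARE mice it read 0.508 to 1.26 and 1.02 to 4.15 CPM (medians 0.663 and 2.68). Of 7 epithelial genes tested, 0 were called in the transfer vehicle comparison and 1 was higher and 1 lower in the TNFΔARE one. Colonocyte genes summed to 7718 to 13013 CPM without and 3766 to 5751 CPM with inflammation in the transfer vehicle groups, without overlap, with 3 of 9 called lower. The inflamed group includes replicate 3, the library with small intestinal transcripts. Calls without the libraries that stand apart are not given for this list or for smooth muscle. Small intestinal enterocyte genes summed to 20237 to 40099 and 10398 to 20067 CPM in the TNFΔARE vehicle groups, also without overlap, with 9 of 12 called lower. Smooth muscle genes summed to 3041 to 9805 and 1940 to 3420 CPM in the transfer vehicle groups, with 5 of 8 called lower, and to 1516 to 5302 and 1623 to 2737 CPM in the TNFΔARE ones, with 0 of 8 called. Plasma cell genes summed to 226 to 306 and 274 to 453 CPM in the transfer vehicle groups, and to 662 to 2972 and 2239 to 4256 CPM in the TNFΔARE ones, with 1 of 6 called higher. Neutrophil genes summed to 85.6 to 729 and 27.8 to 2354 CPM in the transfer vehicle groups, and to 2.95 to 4.49 and 78 to 259 CPM in the TNFΔARE ones. Fibroblast genes summed to 615 to 1136 and 348 to 2505 CPM in the transfer model, with 0 of 8 called, and to 267 to 783 and 675 to 1364 CPM in the TNFΔARE model, with 3 of 8 higher. The part of these cells in the levels of the 8 genes was not tested.

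The 12 B cell and follicle genes summed to 0.944 to 9.7 CPM over the 23 transfer libraries, and to 13.2 to 430 CPM over the 21 TNFΔARE libraries. With vehicle they ran from 13.2 to 302 CPM in wild-type and 151 to 420 CPM in inflamed TNFΔARE libraries, with overlap, and 0 of 12 were called. In the transfer vehicle groups the sums were 0.995 to 3.84 CPM without and 4.18 to 6.01 CPM with inflammation, without overlap, and both of the 2 genes with enough reads to test were called higher (0 of 3 without the pancreatic libraries). The part of B cells in the differences between the models was not tested.

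Among the wild-type littermates, which were all batch 2, B cell genes varied between libraries, and several of the 8 genes varied with them, a relation looked for after the values were seen. Over the 10 libraries, in order of B cell sum from 13.2 to 430 CPM, Tnfsf11 read 0.105, 0.169, 0.663, 1.32, 0.982, 1.29, 1.99, 2.89, 3.47 and 3.78 CPM, and Spib read 6.64, 12.4, 16.6, 15.6, 19.2, 16, 16.7, 38.6, 28.7 and 36.6 CPM. Both were lowest in the libraries with the fewest B cell transcripts and highest in the 3 with the most. On the scale of log2(CPM + 1), Pearson's r with the B cell sum was 0.94 for Tnfsf11 (permutation p = 2e-05, adjusted p = 0.00016 over the 8 genes; Spearman's rho 0.96, permutation p = 8e-05) and 0.93 for Spib (permutation p = 0.00042, adjusted p = 0.00168; rho 0.88, permutation p = 0.00168). The permutation p of r for Tnfsf11 is the lowest that 100000 resamples can give in this two-sided test, and its adjusted p rests on that limit. Leaving out the 2 libraries farthest from the median B cell sum, r was 0.97 and 0.82.

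Of the other 6 genes, Gp2 (r = 0.78, rho = 0.71) and Ccl9 (r = 0.74, rho = 0.83) also passed over these 10 libraries, each with an adjusted permutation p of 0.0208 for r, and r was 0.55 and 0.75 without the 2 farthest libraries. Tnfrsf11a went the other way, with r = -0.67 (permutation p = 0.0377, adjusted p = 0.0603) and rho = -0.81 (permutation p = 0.00736, adjusted p = 0.0147). Tnfrsf11b, Tnfaip2 and Marcksl1 did not pass, with r of 0.04, 0.39 and 0.40 (adjusted permutation p = 0.926, 0.315 and 0.315). The relation was computed for the listed genes only, so the share of all genes that vary with the B cell sum is not known.

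**Figure D5:**
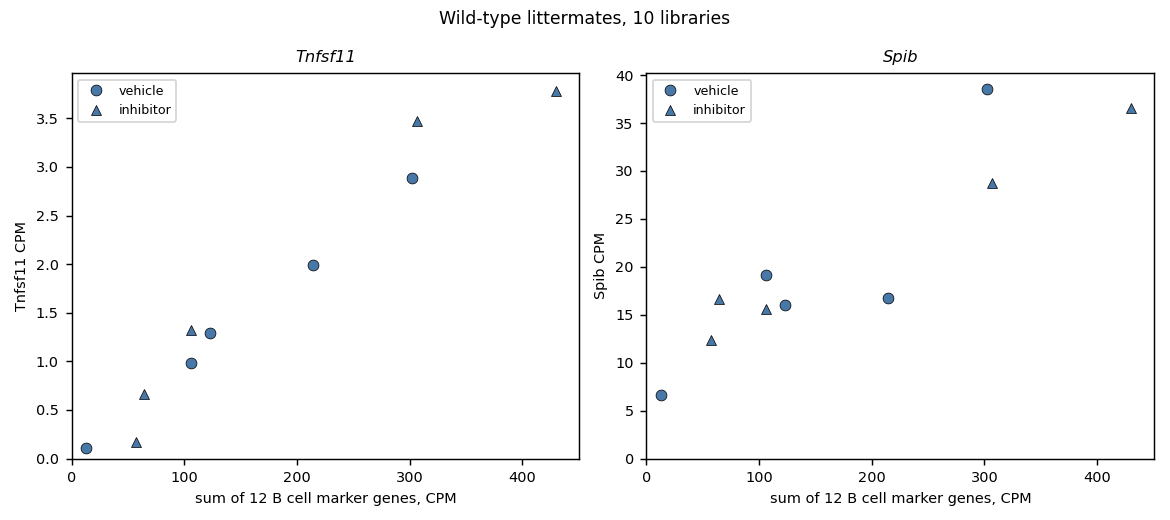
Tnfsf11 and Spib in CPM against the summed CPM of 12 B cell genes in the 10 wild-type littermate libraries, with vehicle as circles and inhibitor as triangles. Tnfsf11 ranges from 0.105 CPM at the lowest to 3.78 CPM at the highest B cell sum.

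The genes whose log2 CPM was most like each gene over the libraries of a model were read by Pearson's r, as a description in which inflamed and non-inflamed libraries form separate clusters. Over the 23 transfer libraries Cd53, Mcemp1 and Clec4e were nearest to Tnfsf11 (each r = 0.96), and Stx11, Ifitm1 and Kcnk13 to Tnfrsf11b (each 0.93). Ctrl and Reg3d, genes of the exocrine pancreas, were among the nearest to Gp2 (0.94 and 0.92), and Cfap45, Yaf2 and Evx1 to Spib (0.77, 0.74 and 0.73). Over the 21 TNFΔARE libraries Il22ra2, the soluble binding protein of interleukin-22, AB124611 and Spib were nearest to Tnfsf11 (each 0.97). Spata6, Pea15a and Anxa5 were nearest to Tnfrsf11b (0.97, 0.94 and 0.92). Cxcl13, the chemokine that draws B cells into follicles, Clu and Icam1 were nearest to Spib (each 0.97), and Zfp141, Zfp983 and Myef2 to Gp2 (0.86, 0.81 and 0.80).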

How the data were processed

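Poly-A selected, stranded RNA-seq libraries of whole intestine were given as 2 tables of expected counts per gene (1 for each model), deposited by the authors, and as normalized signal, also deposited. Salmon 0.14.1, DESeq2 and mm10/GRCm38 are listed, without roles, per the submitters' processing notes. Their settings and the annotation were not given in the sources used here. The 8 genes and all lists were chosen with earlier results of these data known.

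From the deposited expected counts, rounded to whole numbers, each model's 4 groups were fitted together with edgeR 4.0.16 (R 4.3.3): filterByExpr on the groups, TMM scaling, robust quasi-likelihood fit, group and labelled batch as terms, two-sided tests, Benjamini-Hochberg over all genes tested, threshold 0.05. A joint fit of all 44 libraries, with batch nested in model, tested the difference between models. Fitted fold changes are batch-adjusted and can differ from the ratio of group means. CPM uses TMM-scaled library sizes, set separately per model. GENCODE M21 matched 29464 of the 29720 identifiers. Libraries with acinar sums over 500 CPM were called pancreatic, a minimum set after the sums were seen. Correlations used 100000 resamples (scipy 1.17.1).

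Named genes are the 8 genes, the up to 4 genes of each pathway list past the threshold with the smallest p in a comparison, the summed CPM of marker lists, and the 3 genes most like Tnfsf11, Tnfrsf11b, Gp2 and Spib. Some items that this rule names are not reported here. Alternatives left out the batch term or the count filter, used RLE scaling, limma-voom (limma 3.58.1), DESeq2 1.42.0 or a replicate block, and took 2 groups alone, 1 batch alone, each library left out, limma on log2(signal + 1) of the deposited normalized signal, and the exclusions named. The fits were also run on simulated counts with known changes, drawn without batch effects or outlying libraries. Such simulated counts cannot show how the fits deal with uneven batches or with the libraries that stand apart.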

Additional observations from a re-analysis of the deposited data

Results flagged for a closer look

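Of the 64 sets of libraries (8 genes in 8 groups), 7 held a library far from the others of its group, where chance gives about 1 in 20. Gp2 read 972 CPM in transfer inflamed vehicle replicate 1 and 12.9 CPM or less in the other 5, 1.7 CPM in non-inflamed vehicle replicate 4 and 0.448 CPM or less in the other 4, and 1.17 CPM in non-inflamed inhibitor replicate 2 with 0 in the other 5. Tnfaip2 read 24.7 CPM in transfer non-inflamed vehicle replicate 7, with 5.11 to 7.58 CPM in the others, and 37 CPM in non-inflamed inhibitor replicate 5, with 3.59 to 11 CPM in the others. That inhibitor replicate 5 also stood apart in Marcksl1, with 80.6 CPM against 18 to 29.8 CPM. Wild-type vehicle replicate 4 of the TNFΔARE model read 92.9 CPM of Marcksl1, with 45.8 to 59.3 CPM in the others of its group.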

How the results depend on the processing

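The number of the 8 genes called ranged over the alternatives from 0 to 7 (transfer, vehicle), 5 to 6 (TNFΔARE, vehicle), 5 to 7 (transfer, inhibitor) and 2 to 6 (TNFΔARE, inhibitor), was 0 in the comparisons of inhibitor with vehicle, and 0 to 1 for the difference between models. With vehicle in the transfer model it was 1 without the libraries with pancreatic transcripts, 0 with 2 groups alone and 0 with batch 4 alone. Under the inhibitor in TNFΔARE mice it was 2 without inflamed inhibitor replicate 1. For the difference between models it was 1 without the batch term (Gp2), and 0 to 1 with each library left out. Over all genes, calls in the transfer vehicle comparison moved from 2173 to 126, 1053 and 0 under the exclusions and splits named above, to 3365 without the batch term and to 1323 with the normalized signal. In the TNFΔARE comparisons they moved from 2288 to 1272 with 2 groups alone (vehicle) and from 1791 to 4484 without the batch term and 453 without inflamed inhibitor replicate 1 (inhibitor). The cause was not tested.

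Replicate numbers are not stated to pair the libraries, and the share of pairs whose deviations correlated over 0.1 was 0 of 4, 2 of 5, 2 of 6, 0 of 5, 3 of 4, 2 of 5, 1 of 6 and 1 of 5 over the 8 comparisons. With the replicate number as a block, the genes called were 6181 (transfer, vehicle) and 929 (TNFΔARE, inhibitor). Tnfrsf11a was called lower in transfer vehicle mice (-0.94, adjusted p = 0.0202 in edgeR), and Tnfrsf11b (1.44, adjusted p = 0.104) and Spib (1.61, adjusted p = 0.148) were not called in TNFΔARE inhibitor mice.

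The values that changed sign were all uncalled. For the inhibitor in inflamed transfer mice, the replicate block gave Tnfsf11 -0.25, Gp2 -3.53, Tnfaip2 -0.48 and Ccl9 -0.30, no batch term gave Tnfrsf11b 0.45 and Gp2 -0.84, limma-voom gave Gp2 -0.97, and 2 groups alone gave Tnfaip2 -0.19. Without the pancreatic libraries Tnfrsf11b was 0.53, and without replicate 3 as well Tnfrsf11b was 0.42 and Spib -0.20 (0.62 without inflamed vehicle replicate 2). In inflamed TNFΔARE mice, no batch term gave Tnfsf11 -0.23, Tnfrsf11b -0.31 and Spib -0.19, the block gave Tnfrsf11b -0.09, Spib -0.04 and Marcksl1 0.18, limma-voom gave Marcksl1 0.02 and the signal gave Tnfrsf11a -0.05. In non-inflamed transfer mice Tnfaip2 was -0.10 with limma-voom, -0.07 under both exclusions and -0.25 with 2 groups alone. In wild-type mice Tnfrsf11a was -0.01 with the signal and Tnfaip2 0.01 with the block. For inflammation under the inhibitor in TNFΔARE mice, the signal gave Tnfrsf11a -0.03 and Gp2 0.79, limma-voom gave Gp2 1.09 and no batch term gave Gp2 0.01. For the difference between models Tnfaip2 was 0.01 with limma-voom, 0.20 without the batch term and 0.12 without pancreatic libraries and replicate 3.

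Leaving out each library gave these ranges where a sign changed. For the inhibitor in inflamed transfer mice they were -0.03 to 0.72 (Tnfsf11), -0.24 to 0.10 (Tnfrsf11b), -2.43 to 3.42 (Gp2) and -0.03 to 0.35 (Tnfaip2). In inflamed TNFΔARE mice they were -0.11 to 0.28 (Tnfrsf11a), -0.19 to 0.27 (Tnfrsf11b), -0.05 to 0.64 (Gp2), -0.82 to 0.12 (Ccl9) and -0.59 to 0.57 (Marcksl1). In non-inflamed transfer mice they were -0.15 to 0.07 (Tnfrsf11a), -0.11 to 0.24 (Tnfrsf11b), -8.74 to 0.84 (Gp2) and -0.42 to 0.53 (Tnfaip2). In wild-type mice they were -0.17 to 0.75 (Tnfsf11), -0.02 to 0.24 (Tnfrsf11a), -0.32 to 0.04 (Tnfrsf11b), -0.10 to 0.58 (Spib), -0.17 to 0.30 (Tnfaip2), -0.53 to 0.07 (Ccl9) and -0.31 to 0.03 (Marcksl1). For inflammation in TNFΔARE mice they were -0.22 to 0.46 (Gp2, vehicle), -0.12 to 0.28 (Tnfrsf11a, inhibitor) and -0.54 to 0.27 (Gp2, inhibitor), and for the difference between models -0.66 to 0.26 (Tnfsf11) and -0.49 to 0.76 (Tnfaip2).

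Depth limits the non-inflamed values of Tnfsf11 (1 to 42 counts per library) and of Gp2, at 0 in 10 of 21 non-inflamed libraries.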
